A study of Homo sapiens with 3 samples.

Results

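The genes described here are 38 genes of the contractile and adhesive actin cytoskeleton and of the transcription programs tied to it: smooth muscle actins and their binding proteins, myosin and its kinase, proteins of actin cross-links and adhesions, the factor SRF with its cofactors, and targets of the coactivator YAP. They were taken as all probe sets annotated to a fixed list of gene symbols. The rule uses no measured value, but the list was drawn up with earlier results of these data known. Of the 38, 37 had a probe set named for that gene alone, 131 probe sets in all, and 36 passed the filter on low signal, out of 12307 genes that passed among 19775 measured. DES, the muscle intermediate filament protein desmin, did not pass, and FLNA was not analysed here. No member passed the filter through 1 array alone, since each of the 36 was above the filter signal of 42.0 on all 3 arrays.

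The 3 cultures were of IMR-90, a line of human lung fibroblasts, each profiled 24 h after transfection with RNAiMAX of 1 siRNA: the control GL3, SETD8-1 (SETD8 siRNA 1) or SETD8-2 (SETD8 siRNA 2). All were grown in DMEM F12 with heat-inactivated serum. SETD8, now named KMT5A, monomethylates histone H4 at lysine 20. There was 1 array per siRNA and so no replicate error and no p-value. Each value below is a signal on 1 array, a difference is a difference of log2 signal, and a pair of differences gives siRNA 1 first and siRNA 2 second, each against the control array that both comparisons share.

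Stress fibres are bundles of actin and non-muscle or smooth muscle myosin that let fibroblasts pull on their surroundings, and a fibroblast that assembles them strongly and makes smooth muscle actin is called a myofibroblast. When actin polymerises, the cofactors MRTFA and MRTFB are released from actin monomers, enter the nucleus and act with SRF on genes of the same cytoskeleton. Tension in the same fibres also lets YAP and TAZ enter the nucleus, where they act with TEAD factors on genes such as CCN1, CCN2 and ANKRD1.

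The arrays carried equal scaling, with a mean of 497 on each after trimming 2% of values at either end. The KMT5A probe set with the highest signal read 938.9 on the control array, 431.4 for SETD8 siRNA 1 and 584.1 for SETD8 siRNA 2, differences of -1.12 and -0.68. The other 3 above the filter were lowered less, at -0.48 and -0.44, -0.54 and -0.21, and -0.42 and -0.21. All 10 fibroblast markers passed the filter, and 4 were higher with siRNA 2 than siRNA 1 (49.8% of all genes were) and 6 lower. By at least 2-fold, 2 were higher (6.18% of all genes were), DCN by 1.57 and LUM by 1.15, and 0 lower (6.38%). Of 10 smooth muscle markers, 8 of them members themselves, 7 passed. Summed signals were 22767.9, 13448.6 and 36505.3 on the control, siRNA 1 and siRNA 2 arrays. This sum, like those below, is over all markers measured, and ACTG2 alone made up 18785.6, 10810.7 and 27381.4 of it. Of the 7, 6 were higher with siRNA 2 than siRNA 1 (49.8% of all genes were), and MYOCD was lower. The defining ones DES and MYH11 were low: DES read 51.1, 33.8 and 20.9 on the control, siRNA 1 and siRNA 2 arrays, and MYH11, smooth muscle myosin heavy chain, 59.0, 48.8 and 54.0, with its other probe sets below the filter. Of 7 epithelial markers 3 passed, with summed signals of 3333.8, 3170.3 and 6528.0 and ESRP1, on every array, at or under 11.7, the floor to which lower signals were set. Of 6 pericyte markers 5 passed, with sums of 3105.4, 4059.3 and 5319.2, and of 7 endothelial markers 3 passed, with sums of 1390.2, 1605.5 and 2220.6 and CDH5 at the floor throughout. The sums hide markers that went the other way. Of those that passed, 3 pericyte markers were higher with siRNA 2 than siRNA 1 and 2, RGS5 and KCNJ8, were lower. For endothelium 1 was higher and 2 lower, with a median of -0.69, and all 3 epithelial markers were higher. The part of these markers in the results that follow was not tested. In such bulk RNA, fewer cells of a type and less RNA per cell cannot be told apart.

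The contractile genes differed between the 2 SETD8 siRNAs. SETD8 siRNA 2 gave a higher signal than SETD8 siRNA 1 for 33 of the 36 members, where 49.8% of all genes were higher. The largest differences were those of ANKRD1, SYNPO2, ACTC1, CNN1 and LMOD1. The 3 members that were not higher were MYOCD, MRTFB and MRTFA, all of them cofactors of SRF. MRTFA differed by only -0.02, and 2 of its 4 probe sets above the filter were higher with siRNA 2. The median difference, siRNA 2 minus siRNA 1, was 0.52 over the members and -0.0025 over all 12307 genes. At least 2-fold higher were 7 members (background 6.18% of all genes) and at least 2-fold lower was 1 (6.38%).

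Against the control array, 27 of 36 members were lower with SETD8 siRNA 1 at any size (51.6% of all genes were) and 24 were higher with SETD8 siRNA 2 (48.9%). No member was at least 2-fold higher with SETD8 siRNA 1 (5.48% of genes were) and 5 were at least 2-fold lower (7.75%): AXL, SYNPO2, CNN1, CSRP2 and TAGLN. With SETD8 siRNA 2, 5 were at least 2-fold higher (4.46%), ANKRD1, ACTC1, SYNPO2, LMOD1 and CNN1, and 1 was lower (6.65%), MRTFB. No member was past 2-fold on the same side of control for both, where 1.5% of genes were higher and 3.23% lower with both. The member medians were -0.29 with siRNA 1 and 0.29 with siRNA 2, beside -0.02 and -0.01 over all genes. Both medians moved with the processing. Without probe sets that reach a signal of 10000 they were -0.49 and 0.12, and the siRNA 2 median was 0.19 after quantile normalization and 0.47 without probe sets that may bind several transcripts.

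**Figure D1:**
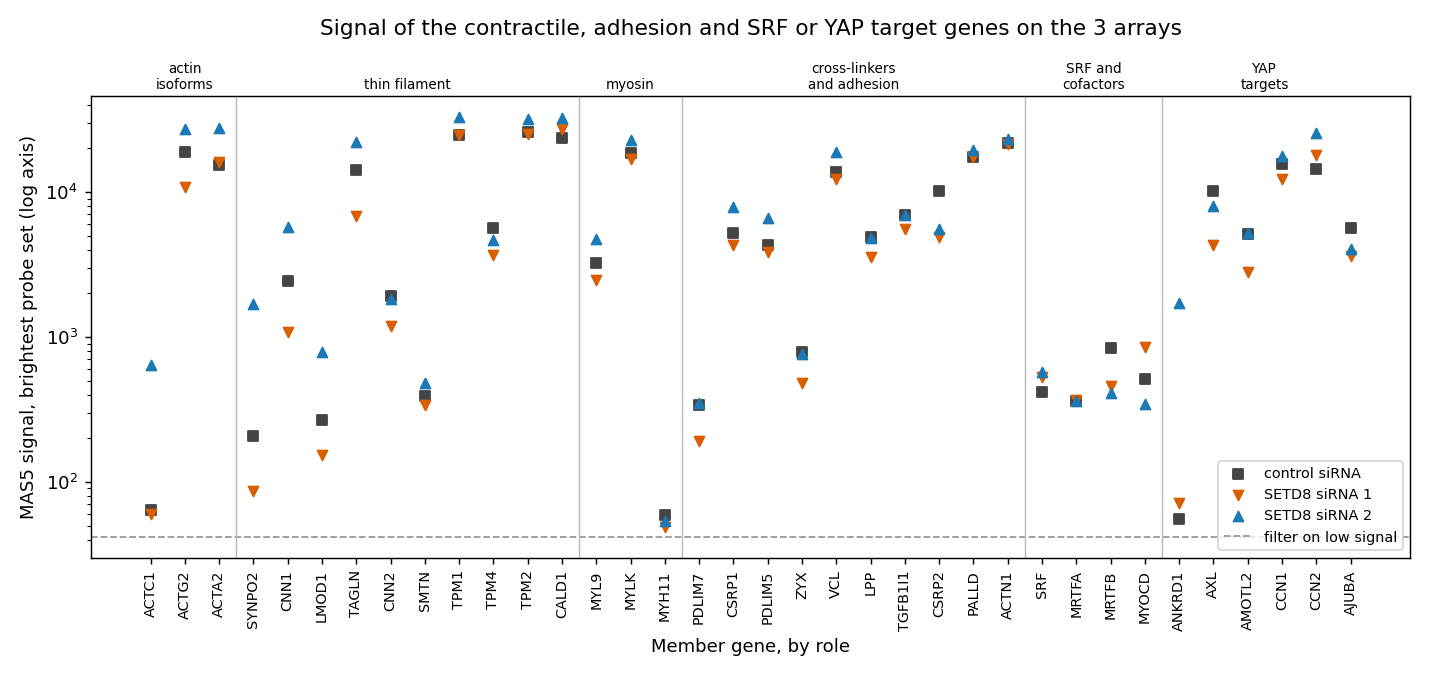
MAS5 signal (log axis) of the 36 tested members on the control, SETD8 siRNA 1 and SETD8 siRNA 2 arrays, 1 point per array from the brightest probe set, ordered by role, with the filter on low signal dashed. SETD8 siRNA 2 lies above SETD8 siRNA 1 for 33 members, and for ACTC1 and ANKRD1 the other 2 arrays lie close together near the filter.

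Actin isoforms are the building blocks of the contractile filament. ACTC1, the actin of heart muscle, had a signal of 64.1 on the control array, 60.4 for SETD8 siRNA 1 and 640.5 for SETD8 siRNA 2. The siRNA 2 array stood alone, 9.99-fold above control (differences of -0.09 and 3.32), and only 15 of the 12307 genes were further above control on that array. ACTG2, the gamma actin of visceral smooth muscle, read 18785.6, 10810.7 and 27381.4, so that the control array lay between the others (-0.80 and 0.54) and the siRNAs differed 2.53-fold. ACTG2 has a second probe set, which was at the floor on all 3 arrays, and averaging the pair took the difference between the siRNAs to 0.67. ACTA2, alpha smooth muscle actin and the usual myofibroblast marker, read 15225.9, 16060.5 and 27518.5 (0.08 and 0.85), under 2-fold with either. Actin coding sequences are near-identical, so signal from one isoform on another's probe set is possible, and its part was not tested.

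SRF binds the CArG box, an A/T-rich core between CC and GG, and the promoters of the 2 actin genes past 2-fold each held it within 250 bases upstream of the start site. They are shown because both genes were higher with SETD8 siRNA 2 and because the motif is the link to SRF. The stretches are from RefSeq's GRCh38.p14 table, on the gene's strand, 5′ to 3′, with the CArG boxes in capitals, from chr2:73892873-73892969 (plus strand, ACTG2) and chr15:34795624-34795683 (minus strand, ACTC1).
ACTG2: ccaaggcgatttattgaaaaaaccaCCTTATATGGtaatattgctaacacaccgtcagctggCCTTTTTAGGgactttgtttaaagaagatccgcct
ACTC1: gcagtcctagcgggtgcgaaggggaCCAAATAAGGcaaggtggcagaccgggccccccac

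ACTG2 has 2 boxes, starting 110 and 73 bases before the start site, and ACTC1 has 1, starting 109 bases before it in 1 of 3 annotated promoter windows. Over both strands, the CArG box was found in 11 of the 32 members with a promoter window (34.4%) and in 1.6% of all 27305 genes with one (1.29% of 35116 windows of 300 bases). The members were listed partly as SRF targets, so this share is no independent evidence. CNN1 and SYNPO2, with 1 and 3 windows, had no match to these letters. The other tested members with a match were MYLK, CNN2, ACTN1, LPP, SMTN, SRF, TGFB1I1 and TPM4. On their brightest probe sets, all of these were under 2-fold apart in every contrast. Among 156 tested genes outside the list that carry the box, the median difference between the siRNAs was -0.01, 5.77% were at least 2-fold higher with siRNA 2 than siRNA 1, and 10.9% were lower.

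Thin filament proteins, which coat actin and set how myosin meets it, included 4 members past 2-fold. SYNPO2, an actin-bundling protein of muscle Z-discs, read 207.2 for the control, 86.8 for SETD8 siRNA 1 and 1686.3 for SETD8 siRNA 2. That was 2.39-fold below and 8.14-fold above control (-1.26 and 3.02), a 19.4-fold gap between the siRNAs, and only 10 of 12307 genes had a larger difference in that direction. All 4 of its probe sets above the filter gave at least 2-fold, between 2.69 and 4.99.

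CNN1, calponin, which binds actin and slows myosin in smooth muscle, read 2442.2, 1084.1 and 5749.6. Its differences were -1.17 and 1.24, again on opposite sides of the control, and 5.30-fold between the siRNAs. CNN1 and SYNPO2 were the 2 members at least 2-fold below control with siRNA 1 and at least 2-fold above it with siRNA 2, a pattern shown by 43 of the 12307 genes.

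LMOD1, leiomodin, which nucleates actin filaments in smooth muscle, read 265.5, 152.4 and 780.7 (-0.80 and 1.56). Its second probe set moved less, 110.1, 101.8 and 159.2. TAGLN, the actin-binding protein SM22 alpha, read 14190.0, 6804.4 and 22028.5 (-1.06 and 0.63). The control array lay between the others on all 3 TAGLN probe sets, and on the dimmest, which is not marked as shared with other transcripts, the signals were 337.8, 148.5 and 786.5.

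The other 6 genes of this group were under 2-fold apart in every contrast on their brightest probe set, and all 6 were higher with SETD8 siRNA 2 than with siRNA 1. Calponin 2, CNN2, differed by 0.62 between the siRNAs, smoothelin, SMTN, by 0.51, the tropomyosins TPM1, TPM4 and TPM2 by 0.39, 0.36 and 0.34, and caldesmon, CALD1, by 0.27. The brightest probe sets of CALD1 and TPM1 read up to 32507.6 and 32646.7, near the highest signal on any array, 36667.4. The dimmer probe sets above the filter differed by 0.59 to 1.76 for TPM1 and by -0.57 to 1.86 for CALD1. One of TPM1 read 1468.6, 1455.2 and 2977.0, a difference of 1.03 between the siRNAs. One of CALD1 read 3835.8, 2437.4 and 7763.2, a difference of 1.67, while others of CALD1 differed by 0.25, 0.21 and -0.57. Compression of high signals and differences between transcript forms were not tested.

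**Figure D2:**
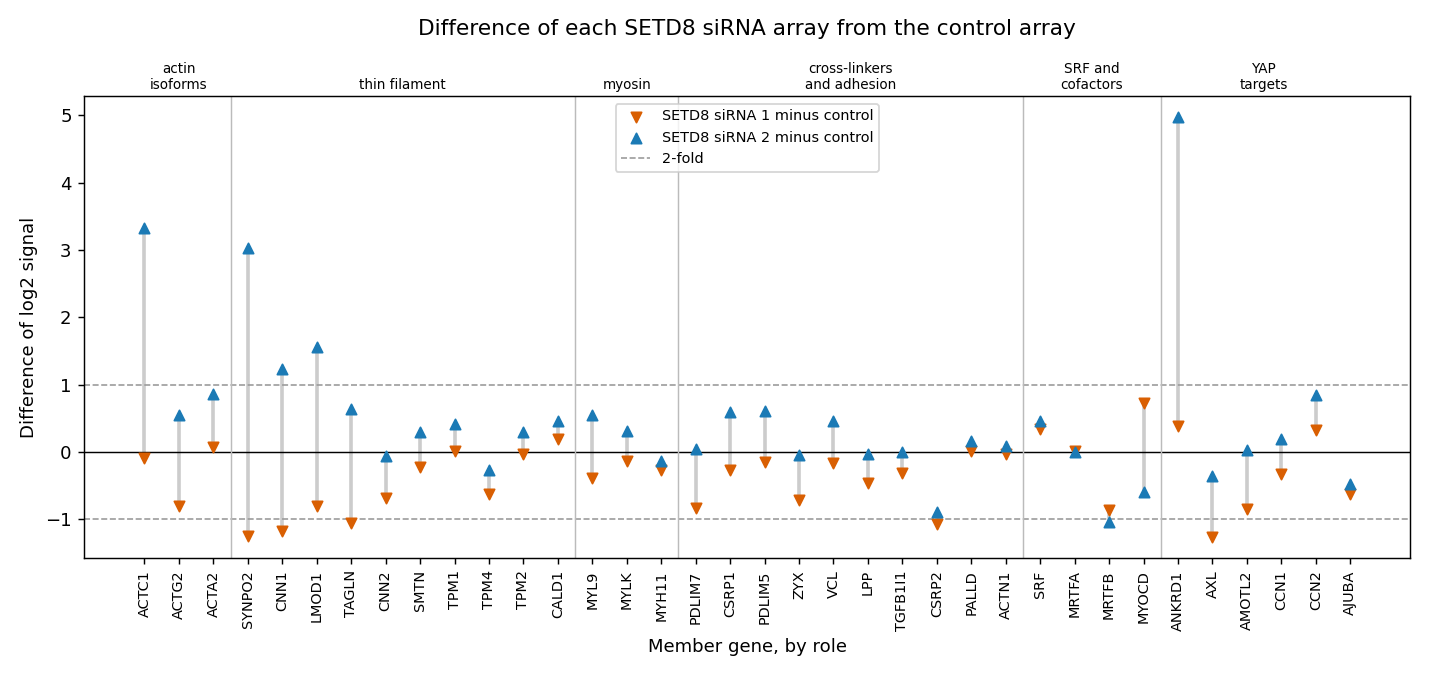
Difference of log2 signal from the control array for each tested member with SETD8 siRNA 1 and SETD8 siRNA 2, joined by a grey bar, by role, with 2-fold dashed. SYNPO2 and CNN1 are past 2-fold on opposite sides, at -1.26 and 3.02 and at -1.17 and 1.24, and MYOCD has the order of the siRNAs turned, at 0.73 and -0.59.

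Myosin and its kinase gave 3 tested members, all under 2-fold. The regulatory light chain MYL9 read 3227.1, 2474.8 and 4706.9 (-0.38 and 0.54), a gap of 0.93 between the siRNAs, and the kinase that phosphorylates it, MYLK, read 18551.0, 16849.6 and 22961.2 (-0.14 and 0.31). Neither was past 2-fold on the brightest probe set, although a dim probe set of each was higher with siRNA 2 than siRNA 1 by 1.33 and 1.38. MYH11 differed by 0.15 between the siRNAs at a signal just above the filter.

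Cross-linking and adhesion proteins, which tie actin filaments to each other and to integrins, gave 10 tested members. On their brightest probe sets, all 10 were higher with SETD8 siRNA 2 than with siRNA 1, by 0.11 to 0.88, and none by 2-fold. A dimmer probe set of PDLIM7 above the filter differed by 1.32, and 2 dimmer ones of LPP were lower, at -0.35 and -0.23. The LIM proteins PDLIM7 and CSRP1 differed by 0.88 and 0.87, PDLIM5 by 0.77, zyxin, ZYX, by 0.66 and vinculin, VCL, by 0.62. VCL read 13809.6, 12352.0 and 18995.7, and ZYX read 786.3, 481.2 and 759.7, so that the array standing apart was siRNA 2 for VCL and siRNA 1 for ZYX. LPP and TGFB1I1, adhesion scaffold proteins, differed by 0.42 and 0.31. PALLD, which organises stress fibres, and the cross-linker ACTN1 differed least, by 0.16 and 0.11.

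CSRP2, a LIM protein of actin bundles, was the member of this group past 2-fold, and it was lower with both siRNAs. Its signal was 10190.2 for the control siRNA, 4859.2 for SETD8 siRNA 1 and 5507.6 for SETD8 siRNA 2 (-1.07 and -0.89). Its second probe set read 3493.0, 1438.9 and 1931.3, with the same order of arrays.

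SRF and its cofactors included the 3 members that were not higher with SETD8 siRNA 2 than with siRNA 1 on the brightest probe set. SRF itself read 417.0, 529.9 and 573.0, a difference of 0.11 between the siRNAs, and its second probe set was lower than control with both at 72.6, 53.4 and 59.2. The SRF promoter is shown because SRF is known to bind its own gene. It holds 2 CArG boxes, starting 30 and 10 bases before the start site, on chr6:43171214-43171268 (plus strand, GRCh38.p14), in capitals.
SRF: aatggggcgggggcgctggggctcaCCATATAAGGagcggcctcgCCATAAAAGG

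MYOCD, myocardin, the cofactor that drives smooth muscle and heart genes through SRF, read 514.3 on the control array, 850.9 for SETD8 siRNA 1 and 342.1 for SETD8 siRNA 2. It was thus the 1 member at least 2-fold lower with siRNA 2 than siRNA 1, by 2.49-fold, and its order of arrays was the reverse of that of CNN1, TAGLN, LMOD1 and SYNPO2. The second MYOCD probe set gave the same order, 289.8, 337.0 and 163.7. MRTFB read 836.5, 460.4 and 408.5 (-0.86 and -1.03), lower with both siRNAs. The second value was under 2-fold after median scaling (-0.99) and quantile normalization (-0.96), and -0.27 with its probe sets averaged, the others of which were below the filter. MRTFA read 362.9, 367.3 and 362.1 and was within 0.02 of control on both. Among its dimmer probe sets above the filter, 2 were higher with siRNA 2 than siRNA 1, by 0.44 and 0.32. Another was lower, at -0.09.

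YAP targets were led by ANKRD1, which encodes a titin-binding ankyrin repeat protein of stretched muscle. It read 55.1 on the control array, 72.0 for SETD8 siRNA 1 and 1725.7 for SETD8 siRNA 2, the latter 31.3-fold above control, and only 2 of 12307 genes were further above control on that array. ANKRD1 had 1 named probe set, so its value has no second probe set beside it. The secreted matrix proteins CCN1 and CCN2, classic YAP and TEAD targets, moved far less. CCN1 read 15567.3, 12366.9 and 17833.2 (-0.33 and 0.20). CCN2 read 14338.6, 17913.9 and 25694.9 (0.32 and 0.84).

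The core of the TEAD site, GGAATG, read on both strands, occurred in 14% of all promoter windows and in 20 of the 71 windows of the members. Because the members were listed partly as YAP targets, this share is no independent evidence. The promoters of ANKRD1 and CCN2 are set side by side because both carry the core more than once while their responses differed. They lie on chr10:90921185-90921332 (minus strand, ANKRD1) and chr6:131951437-131951566 (minus strand, CCN2) in GRCh38.p14, with GGAATG in capitals.
ANKRD1: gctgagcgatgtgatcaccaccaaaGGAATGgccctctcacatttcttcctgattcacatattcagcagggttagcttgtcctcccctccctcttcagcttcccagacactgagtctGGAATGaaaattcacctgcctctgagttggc
CCN2: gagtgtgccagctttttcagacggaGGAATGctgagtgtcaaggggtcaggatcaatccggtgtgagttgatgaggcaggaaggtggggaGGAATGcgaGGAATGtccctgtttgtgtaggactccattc

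ANKRD1 holds the core 2 times, 220 and 128 bases before its start site, and CCN2 holds it at 169, 104 and 95. CCN2 differed by 0.52 between the siRNAs and ANKRD1 by 4.58. Among 1490 tested genes outside the list with the core in a window, the median difference between the siRNAs was 0.03. At least 2-fold higher with siRNA 2 than siRNA 1 were 7.99% and lower 6.58%, beside 5.83% and 6.08% of genes with any promoter window.

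AXL, a receptor tyrosine kinase, read 10217.9, 4275.9 and 7954.4 (-1.26 and -0.36), with the siRNA 1 array apart on both of its probe sets. AMOTL2, an angiomotin family protein that binds YAP, read 5090.9, 2818.7 and 5187.4 (-0.85 and 0.03), the control and siRNA 2 arrays lying together. AJUBA, a LIM protein that restrains the Hippo kinases, read 5607.3, 3619.8 and 4025.7 (-0.63 and -0.48). All 6 YAP targets were higher with siRNA 2 than siRNA 1, and 1 of them, ANKRD1, by 2-fold.

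Separate probe sets of a member gave the same order in most cases. Of the 95 member probe sets above the filter, 87 were higher with SETD8 siRNA 2 than with siRNA 1 (50.6% of all such probe sets were), 20 by at least 2-fold (6.34%) and 2 were lower by that size (6.02%), both of MYOCD. Of 23 members with more than 1 such probe set, 19 had all of them higher with siRNA 2, MYOCD had both lower, and CALD1, LPP and MRTFA were mixed. With each gene's probe sets averaged, 32 of 34 members were higher with siRNA 2, the exceptions being MYOCD and AJUBA. The AJUBA average included a probe set below the filter at 7.6, 26.1 and 6.3, while its 3 above the filter were higher by 0.12 to 0.32. In the highest quartile of signal, 23 of 23 members were higher with siRNA 2 than siRNA 1, beside 48.2% of the 3077 genes there, 3 of them by 2-fold (3.54%).

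**Figure D3:**
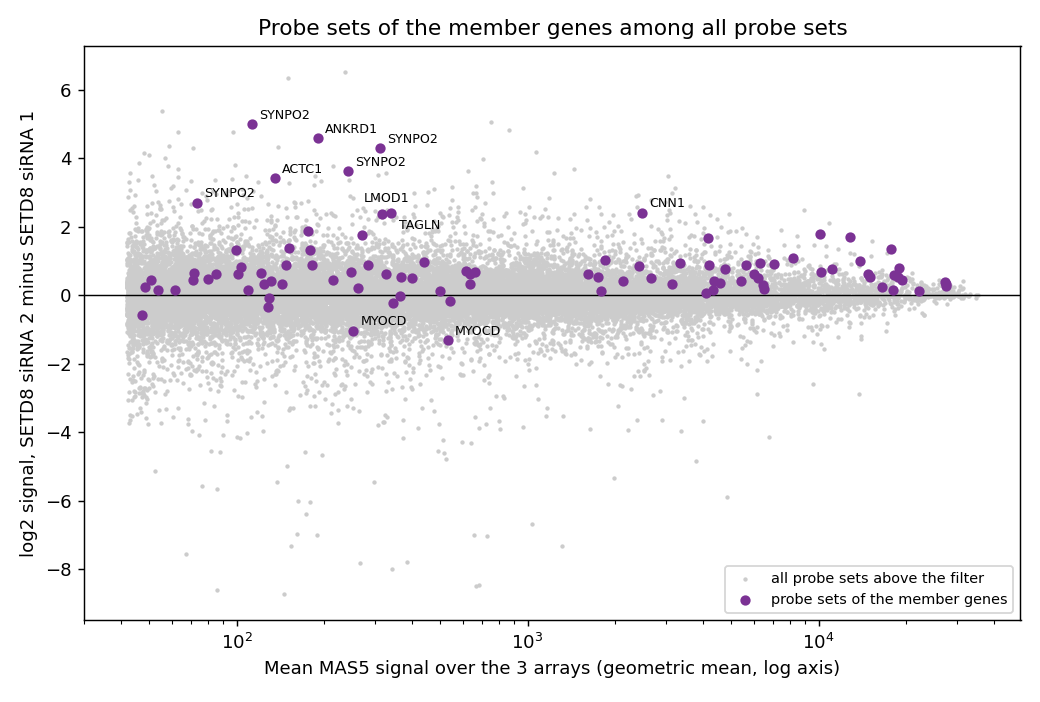
Difference of log2 signal, SETD8 siRNA 2 minus SETD8 siRNA 1, against the geometric mean signal over the 3 arrays (log axis), for all probe sets above the filter (grey) and the 95 of the members (purple). Of the latter 87 lie above 0, and the spread of all probe sets narrows towards the highest signals.

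Related genes outside the list were mixed. Of 40 other actin, myosin and adhesion genes, 28 were higher with SETD8 siRNA 2 than with siRNA 1 and 12 lower, 4 by at least 2-fold in each direction. Over all genes 49.8% were higher, 6.18% by at least 2-fold, and 6.38% were lower by that size. LIMA1, an actin-bundling LIM protein, read 5040.1, 3135.5 and 7526.8. PDLIM3, a Z-disc LIM protein, ran the other way at 242.8, 602.4 and 66.5, but without probe sets that may bind several transcripts it was -0.29 from control with siRNA 1 in place of 1.31, and with probe sets averaged it was 0.10. The integrin subunit ITGA1 read 1404.8, 3676.7 and 1376.0. PDLIM4 read 1993.1, 7532.6 and 3016.2, and without shared probe sets its siRNA 1 difference of 1.92 became -0.063. The cross-linking enzyme TGM2 was higher with both siRNAs (1.51 and 1.55) and ITGA7 lower with both (-1.12 and -1.42), the latter under 2-fold with probe sets averaged (-0.81 and -0.52).

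The Hippo kinases and the YAP, TAZ and TEAD genes had a median gap between the siRNAs of 0.07 over 19 genes. By at least 2-fold, 1 was higher (6.18% of all genes were) and 2 were lower (6.38%). YAP1 read 11269.7, 11168.2 and 10075.3, and WWTR1, which encodes TAZ, 6137.8, 6828.9 and 7180.7. The TEAD cofactor VGLL3 read 5588.1, 2637.8 and 6376.0. SAV1 and STK4, parts of the Hippo kinase complex, were lower with siRNA 2 than siRNA 1 (-1.18 and -1.03), and both were under 2-fold with probe sets averaged.

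Among 15 other YAP targets the median gap was 0.50, with 11 higher (49.8% of all genes were) and 4 of them by at least 2-fold (6.18%). These were GADD45B (1.21), IGFBP3 (1.19), MYOF (1.14) and CRIM1 (1.09), of which CRIM1 was named after its value was seen, and GADD45B was 0.91 without shared probe sets. FJX1, the four-jointed box protein, was lower by 2-fold, at 1542.0, 4871.1 and 2129.8.

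Myofibroblast matrix genes were mostly lower with SETD8 siRNA 2 than with siRNA 1. Of 17 tested, 4 were higher with SETD8 siRNA 2 than siRNA 1 and 13 lower, 3 by at least 2-fold, with a median of -0.21. Over all genes 49.8% were higher, and 6.38% were lower by at least 2-fold. POSTN, periostin, a matrix protein of activated fibroblasts, read 11197.1 on the control array, 24523.5 for siRNA 1 and 412.1 for siRNA 2, a 59.5-fold gap. Its siRNA 1 difference of 1.13 was under 2-fold with probe sets averaged (0.71) and without shared ones (0.82). BGN, the proteoglycan biglycan, read 816.1, 965.1 and 370.4, and tenascin C, TNC, 7656.1, 9544.9 and 4402.3. With probe sets averaged, BGN was -0.62 from control with siRNA 2 and TNC differed by -0.65 between the siRNAs, both under 2-fold. The siRNA 2 array was thus the lowest of the 3 for POSTN, BGN and TNC, the genes of this list with the largest gaps. It was the highest for ACTA2, ACTG2, TAGLN and CNN1. The matrix list did not all go 1 way: with siRNA 2, 1 gene was at least 2-fold above control, by 1.68 (4.46% of all genes were). Below control by that size were 2 (6.65%). Against control, 14 of the 17 matrix genes were higher with siRNA 1 and 9 with siRNA 2, with medians of 0.18 and 0.04. Over all 12307 genes, 5957 were higher with siRNA 1 and 6012 with siRNA 2.

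**Figure D4:**
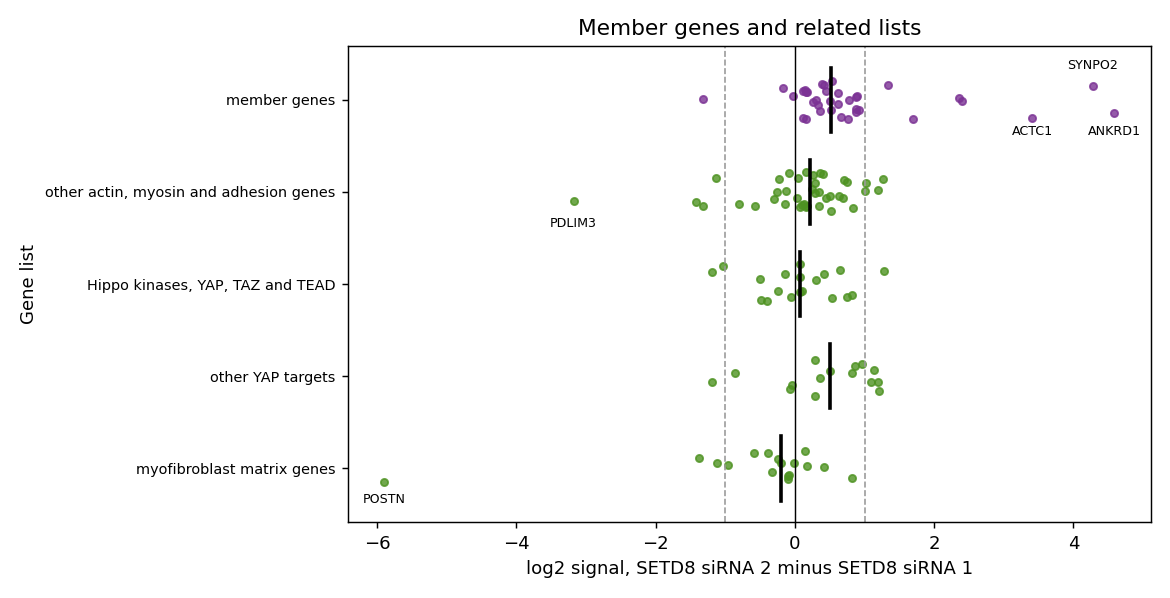
Difference of log2 signal, SETD8 siRNA 2 minus SETD8 siRNA 1, for each tested gene of the members (purple) and of 4 related lists (green), with list medians as black bars and 2-fold dashed. The medians are 0.52 for the members, 0.50 for other YAP targets and -0.21 for myofibroblast matrix genes, where POSTN lies at -5.90.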

How the data were processed

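The deposited values are intensity values, 1 linear MAS5 signal per probe set and array, made by the authors from biotin-labelled cRNA of 250 ng total RNA on Affymetrix arrays, per the labels' protocols and the submitters' processing notes. MAS5 is Affymetrix's method of summarising probe pairs, and its scaling of each array would hide a shift of all genes. Its version: not given in the sources used here. Of 54613 probe sets, 41091 carried 1 gene symbol in the platform table, and gene numbers gave RefSeq symbols for 41037 of them. Values under 11.7, the 25th percentile, were set to it. Each gene took its brightest probe set by mean log2 signal and entered the comparisons where this mean was no lower than the median of all probe sets (5.39). Detection calls were not used. With 1 array per siRNA nothing was tested, precision is limited by the number of arrays, and a call means at least 2-fold.

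The members and lists were chosen with earlier results of these data known. Arrays in full were given for members past 2-fold in any contrast, and related genes were named by the 4 largest gaps between the siRNAs and 2 largest shared changes per list. A further list of related genes is not reported here. Values of other members, of YAP1 and WWTR1 and of the markers were added after being seen. Promoters were matched by symbol to RefSeq windows, 250 bases before to 50 after the start site (32 of 38 members). The alternatives tried were quantile normalization, scaling by the median, a filter at the 75th percentile or none, a pseudocount of 16, averaged probe sets, shared probe sets (suffix _s_at, _x_at or _a_at) left out, and 1.5-fold and 3-fold. Leaving out probe sets that reach 10000 was chosen after seeing the data. The script was tested on simulated data. Python 3.11.15, numpy 2.4.6, pandas 2.3.3 and matplotlib 3.10.9 were used.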

Additional observations from a re-analysis of the deposited data

Results flagged for a closer look

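Of the named genes, 4 were at least 2-fold away from control in opposite directions with the 2 SETD8 siRNAs. The gap, siRNA 2 minus siRNA 1, was 2.41 for CNN1 and 4.28 for SYNPO2, both higher with siRNA 2, and -3.18 for PDLIM3 and -5.90 for POSTN, both lower with siRNA 2. With 1 array each, the difference was not tested. With probe sets averaged, the siRNA 1 difference from control fell under 2-fold for PDLIM3 (0.10) and POSTN (0.71), so that CNN1 and SYNPO2 kept the pattern there. Over all 12307 genes, 43 were lower with siRNA 1 and higher with siRNA 2 by this rule and 39 the reverse.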

How the results depend on the processing

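Of the 19 member differences past 2-fold, 143 of 148 values under the alternatives stayed past 2-fold in the same direction, 5 fell under 2-fold and none reversed. Those 5 were MRTFB under 3 settings and ACTG2 with probe sets averaged (0.67) or without probe sets reaching 10000 (0.00, its dim probe set). A change of filter cannot alter a gene's value, so the values with no filter or the 75th percentile filter stayed the same by construction. They were counted here even for members that the 75th percentile filter removed, and likewise in the count outside the members below. Under both scalings 33 of 36 members were higher with siRNA 2 than siRNA 1, the exceptions again being MRTFA, MRTFB and MYOCD. The scalings moved the median of all genes by under 0.1. The members at least 2-fold lower with siRNA 2 than control numbered 0 with median scaling (6.13% of all genes), quantile normalization (6.1%) or averaged probe sets (5.83%). With no filter they numbered 2 (8.16%). The filter at the 75th percentile left 30 members, 1 higher with siRNA 2 than control (2.8% of all genes there) and 3 higher than with siRNA 1 (4.42%). Leaving out probe sets reaching 10000 left 32 members, 8 of them at least 2-fold higher with siRNA 2 than control (4.65% of all genes there). The medians were then -0.49 and 0.12 with siRNA 1 and siRNA 2. The siRNA 2 median was 0.19 after quantile normalization and 0.47 without shared probe sets. At 1.5-fold, 1 member was higher (12.7% of all genes) and 14 lower (16.4%) with siRNA 1, 10 higher (11.6%) and 3 lower (14.7%) with siRNA 2, 2 lower with both (7.38%), and 17 higher with siRNA 2 than siRNA 1 (14.3%). At 3-fold, 0 were lower with siRNA 1 (3.2%), 3 higher (1.41%) and 0 lower (2.93%) with siRNA 2, and 0 lower with siRNA 2 than siRNA 1 (2.78%). Outside the members, 203 of 218 such values stayed past 2-fold in the same direction and 13 fell under it, among them POSTN with siRNA 1 under 3 settings, and PDLIM3 (-0.29) and PDLIM4 (-0.063) reversed with siRNA 1 without shared probe sets, and the cause was not tested. No paired analysis was possible because each siRNA has 1 array. Signals near the floor and near the top of the scale carry the least information.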
